A study of Mus musculus with 12 samples.

Results

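The genes described here build cholesterol and fatty acids or control that synthesis. They are 39 listed genes, all of which had a probe among the 20018 genes named on the arrays. They were listed by their role in lipid synthesis, with earlier results of these data known. Their shares and medians beside those of all features therefore describe the list and are not a test of it. Mouse splenic B cells were compared in 4 groups of 3 arrays. Control mice had floxed Sub1 and B1-8hi, a rearranged immunoglobulin heavy chain placed in its own locus that favours recognition of the hapten NP (B1-8hi:Sub1fl/fl). Knockout mice carried the same alleles with Mb1-Cre (B1-8hi:Sub1fl/fl-Mb1-Cre), in which Cre is expressed from the Cd79a locus from early B cell stages on. Sub1 encodes the chromatin protein PC4. The controls had no Cre, so loss of Sub1 and presence of Cre cannot be told apart. Resting cells had received no differentiation stimulus. Stimulated cells had been cultured for 72 h with NP-ficoll at 0.01 ng/mL, CD40 ligand at 0.2 ng/mL and the cytokines IL-5 at 1.5 ng/mL, IL-4 at 5 ng/mL and IL-2 at 100 U/mL, a culture that drives B cells towards antibody-secreting cells. No culture time is given for the resting cells, so the stimulus and 72 h of culture cannot be told apart. Stimulation below stands for both together. Nothing in the labels ties the 3 arrays of a group to different mice. The p-values therefore describe how far these samples scatter, and that scatter may be technical. No age is given.

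Cholesterol is made from acetyl-CoA through mevalonate and farnesyl diphosphate to squalene, which is closed to a ring and trimmed to cholesterol. The transcription factors SREBP1 and SREBP2, encoded by Srebf1 and Srebf2, switch on most of these enzymes. They are held in the endoplasmic reticulum with their escort Scap by the Insig proteins while sterols are plentiful, and travel to the Golgi for activation when sterols run low. For sterols, liver X receptors act in the opposite sense and induce the genes of sterol export. Dividing B cells and cells enlarging their secretory membranes need new sterol and fatty acid.

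Levels are log2 Cy3 intensity relative to the array's 75th percentile, so 0 is that percentile and a difference of 1 is a doubling, and they compare arrays for one probe, not one gene with another. Of the 39 genes, 37 had signal well above background throughout the 3 arrays of some group and were tested with limma among 22981 features; a change was called at an adjusted p under 0.05. Me1, malic enzyme, was well above background on none of the 12 arrays. Fads2, a fatty acid desaturase, was so on 1 resting control, 2 stimulated control, 2 resting knockout and 1 stimulated knockout arrays, and neither gene was tested.

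The share of spots well above background ran from 24.3% to 76.8% per array, and arrays of a group correlated at 0.944 to 0.969. On replicates 1, 2 and 3 this share was 36.6%, 24.3% and 60.1% in stimulated controls and 64.5%, 42.6% and 76.8% in stimulated knockouts. At rest it was 41.8%, 52.9% and 64.1% in controls and 40.5%, 48.1% and 76.6% in knockouts. The part of this share in the differences between genotypes was not tested. The brightest Sub1 probe read 6.07, 6.02 and 6 in resting controls and 5.37, 5.8 and 5.77 in resting knockouts, then 8.19, 7.79 and 8.15 in stimulated controls and 6.72, 6.87 and 6.92 in stimulated knockouts. Its difference was -0.38 in resting cells (limma adjusted p = 0.268) and -1.21 in stimulated cells (SE 0.19, adjusted p = 0.0114); this call was lost without stimulated knockout replicate 1 (-1.15) or 2 (-1.22). A dimmer Sub1 probe gave -0.86 at rest and 0.09 in stimulated cells, and the mean of both gave -0.56 in stimulated cells (adjusted p = 0.248). Whether either probe lies in the deleted part was not tested. All 10 listed B cell markers were well above background on all 3 arrays of both resting groups and of the stimulated knockouts, and 8 of 10 on those of the stimulated controls. The arrays came on 2 slides, the second of which held every replicate 3. On slide 1 the genotypes lay in different rows, so that row and genotype cannot be told apart there.

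Promoters of 31 of the 39 genes were in the RefSeq table used here (mouse build GRCm38.p6), 40 windows of 300 bases from 250 before to 50 after an annotated start, with 6 genes having more than 1 start. They are searched here because most of these genes moved together after stimulation. The 4 shown were picked by result. Among sterol synthesis genes called lower in stimulated knockout cells, they had the smallest p of those with a window. Hmgcs1, Mvd and Idi1 belong to the mevalonate steps and Msmo1 to the steps after squalene. Capitals mark the core of the sterol regulatory element, TCACNCCAC, and the NF-Y box, CCAAT, on either strand, so that ATTGG is a box on the opposite strand.
Hmgcs1 chr13:119690101-119690400, plus strand: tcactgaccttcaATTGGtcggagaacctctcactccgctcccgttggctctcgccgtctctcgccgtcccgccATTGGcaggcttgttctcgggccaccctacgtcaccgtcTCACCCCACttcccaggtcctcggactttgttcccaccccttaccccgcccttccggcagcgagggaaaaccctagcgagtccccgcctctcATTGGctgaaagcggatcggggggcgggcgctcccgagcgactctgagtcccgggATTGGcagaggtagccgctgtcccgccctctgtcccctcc
Mvd chr8:122443373-122443672, minus strand: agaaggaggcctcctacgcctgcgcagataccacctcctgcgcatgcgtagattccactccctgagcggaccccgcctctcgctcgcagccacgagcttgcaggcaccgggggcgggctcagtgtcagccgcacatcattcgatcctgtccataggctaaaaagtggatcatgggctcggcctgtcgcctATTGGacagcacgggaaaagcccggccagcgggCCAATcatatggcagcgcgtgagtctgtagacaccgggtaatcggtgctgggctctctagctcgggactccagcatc
Idi1 chr13:8885356-8885655, plus strand: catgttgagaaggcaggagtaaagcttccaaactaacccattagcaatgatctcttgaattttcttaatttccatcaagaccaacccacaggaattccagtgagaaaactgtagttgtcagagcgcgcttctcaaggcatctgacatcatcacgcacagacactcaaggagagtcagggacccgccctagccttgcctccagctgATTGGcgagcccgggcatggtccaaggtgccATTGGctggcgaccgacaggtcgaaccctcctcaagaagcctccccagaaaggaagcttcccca
Msmo1 chr8:64733529-64733828, minus strand: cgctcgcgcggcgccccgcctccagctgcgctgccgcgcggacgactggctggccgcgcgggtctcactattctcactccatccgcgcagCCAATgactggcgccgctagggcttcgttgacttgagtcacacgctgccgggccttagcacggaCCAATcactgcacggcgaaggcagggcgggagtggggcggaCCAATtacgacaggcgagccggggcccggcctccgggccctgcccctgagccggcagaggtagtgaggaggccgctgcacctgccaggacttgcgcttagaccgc

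The core of the sterol regulatory element stood in 1 of the 40 windows (2.5%), that of Hmgcs1, 137 bases before its start, and in 1.24% of all 32851 windows of the table. CCAAT was found in 24 windows (60%, against 37.4% of all windows). By gene it stood in 23 of the 31 with an entry, and in 9 of the 11 of these called lower in stimulated knockout cells. Whether called and other genes differ in this was not tested. The Sp1 box GGGCGG was found in 29 (72.5%, against 35.7%) and the E-box CACGTG in 7 (17.5%, against 7.15%). Hmgcs1 held 4 CCAAT boxes, Msmo1 3 and Mvd and Idi1 2 each. All motifs were read on both strands, base composition was not taken into account, and a match describes letters and not a bound site.

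In control cells the synthesis genes were higher together after stimulation. Of the 37 tested genes, 27 rose (73%; 14.7% of all features did) and 2 fell (5.41%; 13.1% of all features did), with a median change of 1.5 against 0.04 over all features. Each of the 7 genes of the mevalonate steps rose (median 2.11), 10 of 11 genes from squalene to cholesterol (2.08), 4 of 6 of sterol sensing (1.01) and 6 of 9 tested fatty acid genes (0.69). Of the 4 genes on the liver X receptor side, 2 fell and none rose. Fads1, the desaturase that makes arachidonic acid, had the highest change at 3.01 (SE 0.31, limma adjusted p = 5.83e-05), an 8.04-fold rise. It read -2.3, -1.88 and -1.25 in resting controls, where 2 of 3 arrays were well above background, and 1.56, 0.92 and 1.12 in stimulated controls.

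The genes that fell in control cells were Abca1 and Mylip. Abca1, the cholesterol exporter induced by liver X receptors, fell by 2.52 in control cells (SE 0.24, limma adjusted p = 3.68e-05), or 5.74-fold. Mylip, a ubiquitin ligase that removes lipoprotein receptors, fell by 2.6 (SE 0.33, adjusted p = 0.000196), or 6.07-fold. Abcg1, another exporter, changed by -0.19 and Nr1h2, which encodes liver X receptor beta, by -0.19, and neither was called. The genes of this list that did not pass the test in control cells were also Hsd17b7, Insig2, Srebf1, Acss2, Scd1 and Lpin1, with changes between -0.68 for Scd1 and 1.09 for Hsd17b7. Within pairs of paralogs, Insig1 rose by 2.21 and Insig2 had a change of -0.39. Srebf2 rose by 1.02 and Srebf1 had -0.21, and Scd2 rose by 2.82 and Scd1 had -0.68. The differences between paralogs were not tested.

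In knockout cells most of the sterol enzymes were also higher after stimulation. After stimulation 18 genes were higher (48.6%; 10.9% of all features) and Abca1 and Mylip were lower (5.41%; 5.2% of all features), with a median change of 0.6 against 0.1 over all features. The 20 calls became 12 with median scaling and 13 without a filter or with slide 1 alone, and with scaling to the spots detected on all arrays the median was 0.27 against -0.23 over all features. By steps, 5 of 7 mevalonate genes, 9 of 11 from squalene to cholesterol, 1 of 6 of sterol sensing (Stard4) and 3 of 9 fatty acid genes rose. Idi1 had the highest change at 2.16 (SE 0.2, limma adjusted p = 9.09e-05), against 2.83 in control cells. Insig1 rose in control cells by 4.62-fold, and its change in knockout cells was 0.6 (adjusted p = 0.315). Fasn, fatty acid synthase, changed by 0.13 in knockout cells (adjusted p = 0.844) and rose by 1.18 in controls (adjusted p = 0.0104). Both comparisons have their own resting arrays, and the direct test of their difference is the interaction given further on.

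**Figure D1:**
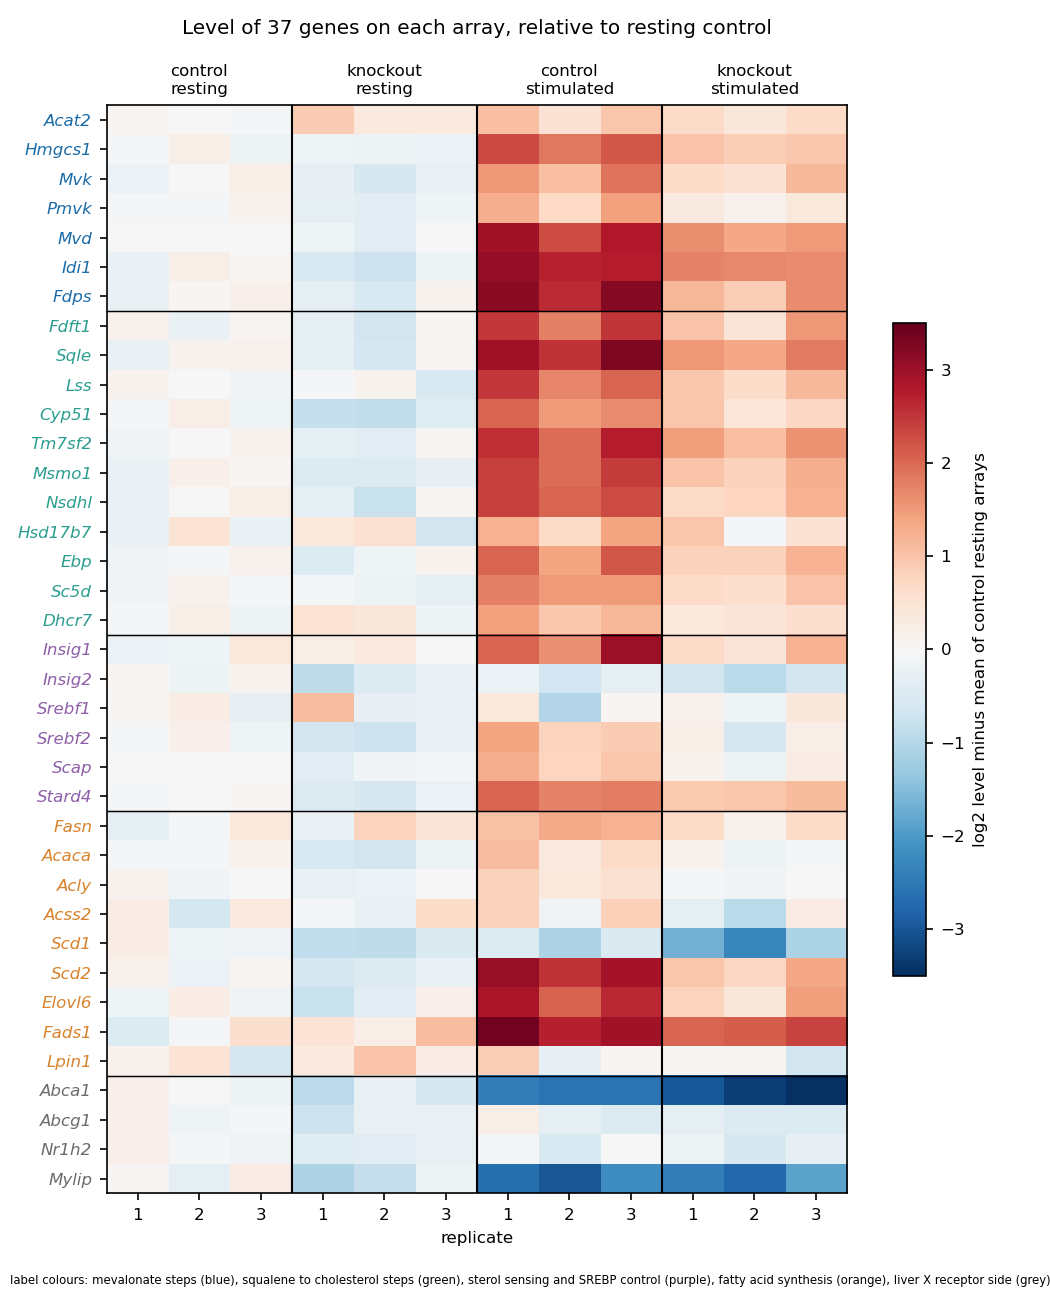
Level of the 37 tested genes (rows, by role) on each of the 12 arrays (columns, by group and replicate), as the log2 difference from the mean of the 3 resting control arrays, red higher and blue lower. The stimulated control columns are redder than the stimulated knockout columns over most sterol rows, and Abca1 and Mylip are blue in both.

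In stimulated cells the knockout had lower levels of these genes than the control. Of 37 tested genes 15 were lower (40.5%; 2.26% of all features were lower) and none was higher (1.21% of all features were higher). The median difference was -0.85 against -0.02 over all features, and 35 of 37 differences were negative. On 27 genes (73%) all 3 knockout arrays lay below all 3 control arrays, which held for 14% of all features, and on none did they all lie above (10.9% of all features). At an unadjusted p under 0.05 limma had 28, each of them lower, and 5082 of all 22981 features in either direction. The 15 genes were Hmgcs1, Mvd, Idi1 and Fdps of the mevalonate steps; Sqle, Lss, Cyp51, Tm7sf2, Msmo1, Nsdhl and Sc5d after squalene; Scap and Stard4 of sterol handling; and Scd2 and Elovl6 of fatty acid synthesis. Their differences lay between -1.93 and -0.95 on slide 1 and between -1.55 and -0.48 on slide 2, and with the slide as a block 19 genes were lower, against 1309 of all 22981 features called in either direction. With the replicate number as a block, 23 of the 37 were lower (8.12% of all features were called in either direction by that fit). That block spans all groups, and no label ties equal replicate numbers to one mouse. Same-numbered arrays deviated together in this comparison, but not in every pair at rest or in stimulation of knockout cells.

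The count moved with single arrays. Left out 1 at a time, it was 2, 23 and 8 without stimulated control replicates 1, 2 and 3, and 2, 1 and 7 without stimulated knockout replicates 1, 2 and 3. It was 9 without resting control replicate 2 or 3. Without both arrays of control replicate 1, and without a filter on low signals, it was 1, with slide 1 alone 0 (14 of all features were called), with the stimulated arrays alone 0 (as over all features), and after quantile normalization 6. No gene of the 15 changed sign in any of these fits. For each of them all 3 stimulated knockout arrays lay below all 3 stimulated control arrays. Leaving out arrays could therefore not reverse the sign. Scd2 stayed past the threshold in 12 of 12 single omissions, Hmgcs1 in 11, Fdps, Msmo1 and Nsdhl in 9 each, and Tm7sf2 and Sc5d in 1 each. Calls over all features also moved between fits. A count given without them does not tell a change in these genes from one over the whole array. The median difference of the listed genes relative to that of all features lay between -1.03 and -0.66 over 28 fits.

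**Figure D2:**
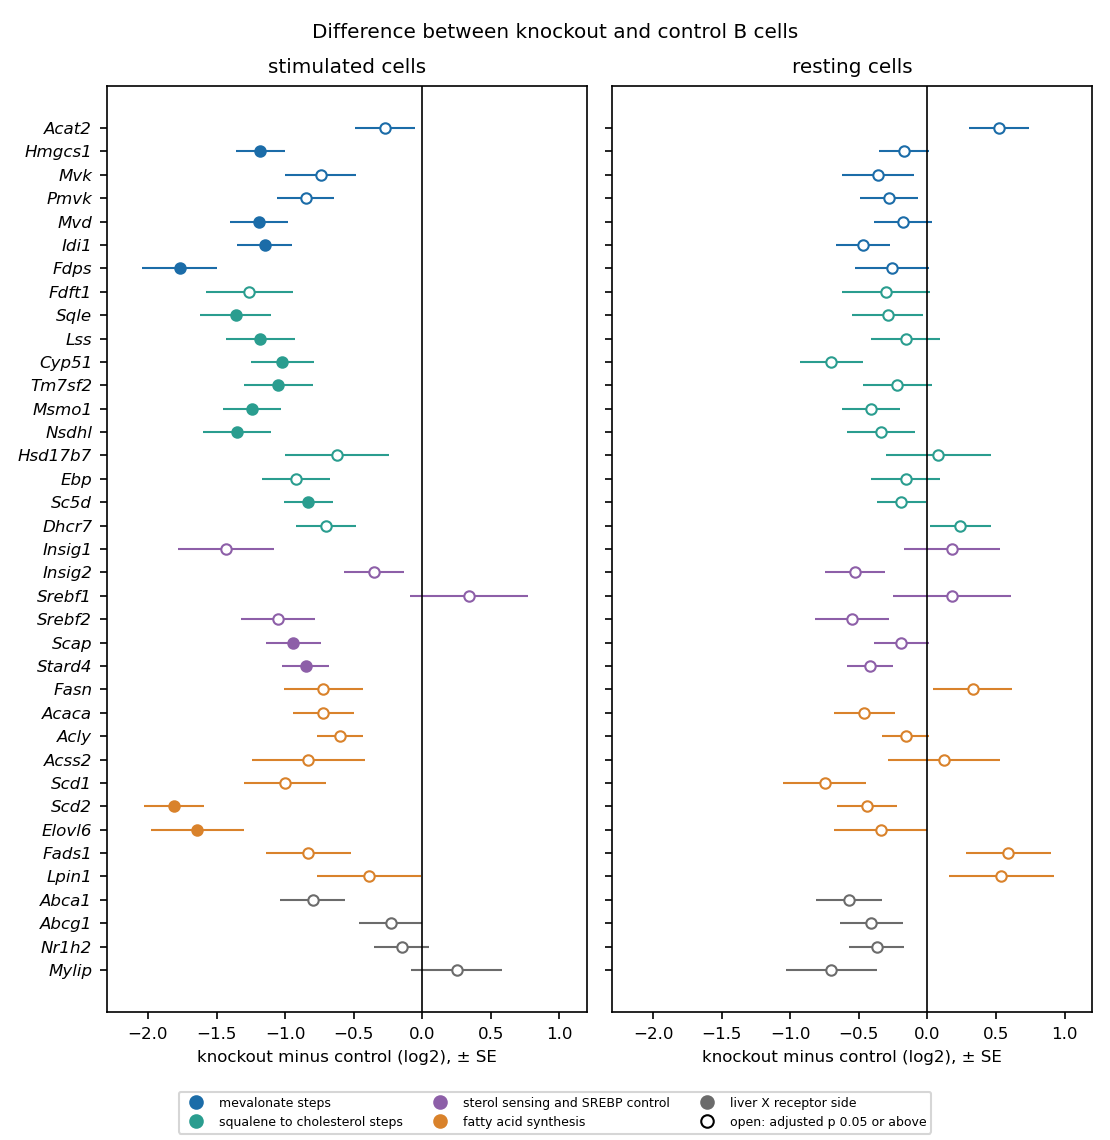
Knockout minus control on the log2 scale for each tested gene, in stimulated cells (left) and resting cells (right); points are fitted differences, bars their SE, colours the role groups, and filled points an adjusted p under 0.05. In stimulated cells 35 of 37 points lie left of 0 and 15 are filled, and in resting cells none is filled.

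In the mevalonate steps all 7 genes had negative differences in stimulated cells and 4 were lower (median -1.15). Hmgcs1, which makes HMG-CoA, read 5.52, 5.07 and 5.4 in stimulated controls and 4.23, 4.08 and 4.15 in stimulated knockouts, after 3.18, 3.43 and 3.05 in resting controls and 3.08, 3.05 and 3.02 in resting knockouts. The stimulated groups lay apart by more than their spread and the resting groups overlapped. Its difference was -1.18 (SE 0.18, limma adjusted p = 0.0113), 2.26-fold lower; without stimulated knockout replicate 2 the adjusted p was 0.0526. Mvd, mevalonate diphosphate decarboxylase, read 3.23, 2.59 and 3.1 in stimulated controls and 1.92, 1.65 and 1.78 in stimulated knockouts, and 0.29, 0.3 and 0.31 in resting controls and 0.15, -0.09 and 0.31 in resting knockouts. It was high on every stimulated control array and reached an intermediate level in the knockout, with a difference of -1.19 (SE 0.21, adjusted p = 0.0156).

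Idi1, the isomerase that makes the building block joined by Fdps, read 4.88, 4.5 and 4.55 in stimulated controls and 3.55, 3.48 and 3.47 in stimulated knockouts, from 1.58, 2.01 and 1.85 in resting controls and 1.29, 1.09 and 1.64 in resting knockouts. The 3 knockout values after stimulation differed by less than 0.1 among themselves, and the difference was -1.15 (SE 0.2, limma adjusted p = 0.0178). Fdps, farnesyl diphosphate synthase, stands where the branches to sterols, prenyl groups and dolichol part. It read 6.41, 5.85 and 6.44 in stimulated controls and 4.39, 4.11 and 4.9 in stimulated knockouts, and 2.99, 3.32 and 3.42 against 2.91, 2.7 and 3.35 in resting cells. Fdps had the most negative difference of the sterol enzymes, -1.77 (SE 0.27, adjusted p = 0.0114), or 3.4-fold lower.

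The other mevalonate genes were not called. Pmvk, phosphomevalonate kinase, had -0.85 (limma adjusted p = 0.0525, and 0.0237 with the replicate block). Mvk, mevalonate kinase, had -0.74 (adjusted p = 0.138, and 0.0446 with the block). Acat2, the cytosolic thiolase of the first step, had -0.27 (adjusted p = 0.478, and 0.321 with the block), and its groups overlapped. Second probes of Pmvk and Mvk gave -0.86 and -0.88.

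From squalene to cholesterol all 11 genes had negative differences and 7 were lower (median -1.05). Sqle, squalene epoxidase, read 5.12, 4.67 and 5.43 in stimulated controls and 3.68, 3.49 and 3.98 in stimulated knockouts, against 1.88, 2.27 and 2.3 and 1.83, 1.54 and 2.19 at rest. The stimulated groups did not overlap, with a difference of -1.36 (SE 0.26, limma adjusted p = 0.0213). Lss, lanosterol synthase, which closes the ring, read 2.21, 1.44 and 1.78 in stimulated controls and 0.66, 0.36 and 0.86 in stimulated knockouts, and -0.14, -0.29 and -0.36 against -0.35, -0.14 and -0.79 at rest. Its difference was -1.18 (SE 0.25, adjusted p = 0.0315), and the call was kept in 5 of 12 single omissions.

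Cyp51, lanosterol demethylase, read 1.8, 1.24 and 1.41 in stimulated controls and 0.72, 0.19 and 0.49 in stimulated knockouts. At rest it read -0.3, -0.02 and -0.39 in controls and -1.05, -1.11 and -0.66 in knockouts. It was lower on all 3 knockout arrays in both states, by 1.02 in stimulated cells (SE 0.23, limma adjusted p = 0.0386, kept in 2 of 12 omissions), and its resting difference of -0.7 was not called (adjusted p = 0.214). Tm7sf2, a sterol reductase, read 2.72, 2.1 and 2.9 in stimulated controls and 1.62, 1.21 and 1.73 in stimulated knockouts, and 0.03, 0.15 and 0.27 against -0.18, -0.24 and 0.2 at rest. Its difference of -1.05 lay close to the threshold (SE 0.25, adjusted p = 0.046), and its second probe gave -0.82.

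Msmo1 and Nsdhl act in turn to remove methyl groups from the sterol ring. Msmo1 read 4.9, 4.45 and 4.95 in stimulated controls and 3.51, 3.31 and 3.76 in stimulated knockouts, and 2.28, 2.68 and 2.53 against 2.03, 2.01 and 2.22 at rest. The knockout arrays lay below the controls in both states, with -1.24 in stimulated cells (SE 0.21, limma adjusted p = 0.014) and -0.41 at rest (adjusted p = 0.274). Nsdhl read 1.13, 0.79 and 1.01 in stimulated controls and -0.59, -0.5 and -0.04 in stimulated knockouts, and -1.49, -1.26 and -1.03 against -1.59, -2.03 and -1.18 at rest, where 1 of 3 knockout arrays was well above background. Its difference was -1.35 (SE 0.25, adjusted p = 0.0203), while a dimmer probe that failed the filter on low signal gave -0.13.

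Sc5d, which places a double bond in the ring shortly before the last steps, read 3.27, 2.99 and 2.98 in stimulated controls and 2.16, 2.1 and 2.49 in stimulated knockouts, and 1.41, 1.66 and 1.45 against 1.44, 1.32 and 1.19 at rest. The stimulated groups did not overlap, with -0.83 (SE 0.18, limma adjusted p = 0.0361). The genes of this stretch that were not called were Fdft1, Ebp, Dhcr7 and Hsd17b7. Fdft1, squalene synthase, had -1.26 (adjusted p = 0.0585, and 0.0122 with the replicate block). Ebp, a sterol isomerase, had -0.92 (adjusted p = 0.0808, and 0.032 with the block). Dhcr7, a late reductase, had -0.7 (adjusted p = 0.118, and 0.0815 with the block). Hsd17b7, a ketosteroid reductase, had -0.62 (adjusted p = 0.346, and 0.305 with the block). A dimmer Fdft1 probe that failed the filter gave 0.18.

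Among the 6 genes that sense sterols or control SREBP, 2 were lower in stimulated knockout cells (median -0.9). Scap, the escort of SREBP, read 4.7, 4.17 and 4.4 in stimulated controls and 3.53, 3.24 and 3.67 in stimulated knockouts, and 3.44, 3.4 and 3.43 against 3.03, 3.33 and 3.34 at rest. The stimulated knockout values came close to the resting ones: stimulation raised Scap by 1 in control cells (SE 0.2, limma adjusted p = 0.00338), and the change in knockout cells was 0.25 (adjusted p = 0.5). The knockout difference in stimulated cells was -0.94 (SE 0.2, adjusted p = 0.031, kept in 3 of 12 omissions). Stard4, which carries cholesterol between membranes, read 2.77, 2.48 and 2.52 in stimulated controls and 1.66, 1.7 and 1.86 in stimulated knockouts, and 0.71, 0.73 and 0.79 against 0.27, 0.17 and 0.53 at rest. It differed by -0.85 (SE 0.17, adjusted p = 0.0271, kept in 6 of 12 omissions), and its second probe gave -0.92.

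Insig1, itself an SREBP target that holds SREBP back, had -1.43 (SE 0.35, limma adjusted p = 0.0516, and 0.0242 with the replicate block). Its stimulated controls ran from 1.05 to 2.44 and its stimulated knockouts from -0.11 to 0.68. Srebf2 had -1.05 (adjusted p = 0.0624, and 0.0415 with the block), and Insig2 had -0.35 (adjusted p = 0.36, and 0.255 with the block). Srebf1 had a positive difference of 0.34 (adjusted p = 0.645, and 0.548 with the block). It was well above background on 2 of 3 arrays in each stimulated group.

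Of 11 fatty acid genes 9 were tested; all 9 had negative differences in stimulated cells and 2 were lower (median -0.83). Scd2, a stearoyl-CoA desaturase that makes monounsaturated fatty acids, read 6.63, 6.12 and 6.49 in stimulated controls and 4.57, 4.31 and 4.93 in stimulated knockouts, and 3.75, 3.38 and 3.65 against 3, 3.1 and 3.37 at rest. The knockout arrays lay below the controls in both states, but at rest only just (3.37 against 3.38). The resting difference of -0.44 was not called (limma adjusted p = 0.275), and 26.7% of all features had all 3 knockout arrays lower at rest. Scd2 had the lowest adjusted p of all 37 genes (difference -1.81, SE 0.22, limma adjusted p = 0.00477), 3.5-fold lower. Its paralog Scd1 had -1 (SE 0.3, adjusted p = 0.0991, and 0.0391 with the replicate block); whether either probe also binds the other transcript was not tested.

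Elovl6, which lengthens palmitate, read 1.89, 1.09 and 1.66 in stimulated controls and -0.2, -0.56 and 0.48 in stimulated knockouts, and -1.13, -0.71 and -1.08 against -1.76, -1.37 and -0.8 at rest. The stimulated groups lay apart, and the resting groups overlapped, with 2 of 3 resting knockout arrays well above background. Its difference was -1.64 (SE 0.34, limma adjusted p = 0.0283), 3.12-fold lower. The genes that feed the synthase were not called, nor was Fasn. Acly, ATP citrate lyase, had -0.6 (adjusted p = 0.0892, and 0.052 with the replicate block). Acaca, acetyl-CoA carboxylase, had -0.72 (adjusted p = 0.108, and 0.0534 with the block). Acss2, acetyl-CoA synthetase, had -0.83 (adjusted p = 0.258, and 0.0396 with the block). Fasn had -0.72 (adjusted p = 0.182, and 0.115 with the block). Fads1 had -0.83 (adjusted p = 0.161, and 0.0866 with the block) and Lpin1, a phosphatidate phosphatase, -0.39 (adjusted p = 0.552, and 0.432 with the block). Dimmer probes of Acaca and Acly that passed the filter gave 0.24 and -0.13.

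The 4 genes on the liver X receptor side gave no call in the knockout (median -0.19). Abca1 had the smallest p among them. It read -0.11, -0.28 and -0.28 in stimulated controls and -0.67, -1 and -1.41 in stimulated knockouts, and 2.47, 2.29 and 2.13 against 1.38, 2.06 and 1.74 at rest. It was lower on all 3 knockout arrays in both states, with 2 of 3 stimulated control arrays well above background. Its resting difference of -0.57 was not called (limma adjusted p = 0.24). Its difference after stimulation was -0.8 (SE 0.24, limma adjusted p = 0.0984, and 0.0669 with the replicate block). Abcg1 had -0.23, Nr1h2 -0.15 and Mylip 0.25, with overlapping groups and adjusted p from 0.554 to 0.668 (0.356 to 0.565 with the block).

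**Figure D3:**
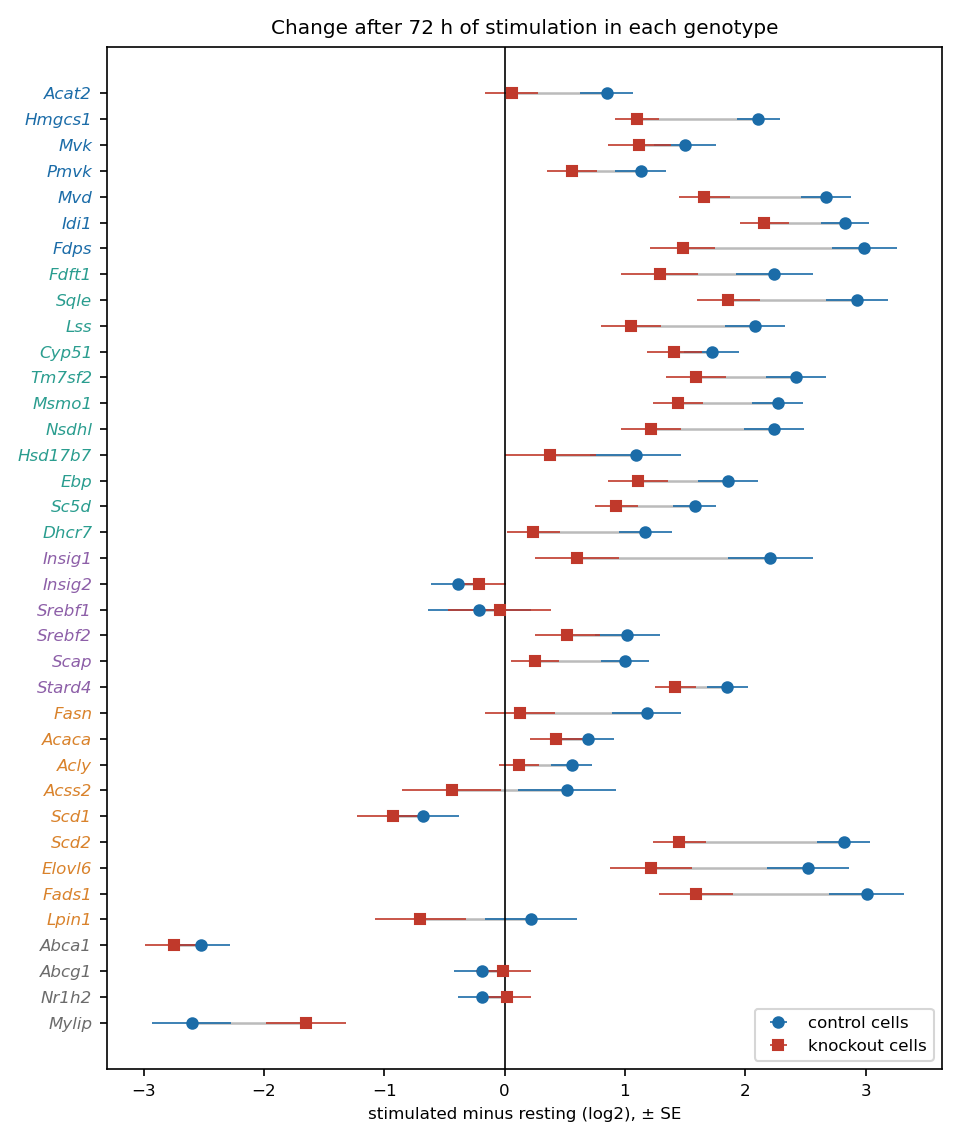
Stimulated minus resting level (log2, bars are SE) for each tested gene in control cells (blue circles) and knockout cells (red squares), joined by a grey line. The red point lies left of the blue one for 32 of 37 genes, among them all genes of the mevalonate and squalene to cholesterol steps.

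The interaction asks whether stimulation changed a gene by a different amount in the knockout. No gene of the list passed it in either direction, where 0.0914% of all features were lower and 0.0522% higher. At an unadjusted p under 0.05 there were 18 of 37, against 2445 of 22981 features, and 32 of 37 interaction terms were negative (median -0.76 against 0.08 over all features). Scd2 had the smallest p, with stimulation raising it by 2.82 in controls and by 1.45 in knockouts, a difference of -1.37 (SE 0.32, limma adjusted p = 0.133). Hmgcs1 had -1.01 (adjusted p = 0.162), Fdps -1.51 (adjusted p = 0.167) and Insig1 -1.61 (adjusted p = 0.243). With limma's trended and robust variance, or with the filter requiring signal on all 12 arrays, 3 genes were called, and with scaling to the spots detected on all arrays 1. The lower response of the knockout is not shown for any single gene by the fit used here.

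In resting cells no gene of the list was called in either direction, where limma called 0.00435% of all features lower and 0.0087% higher; 7 of 37 had an unadjusted p under 0.05, as did 4534 of all 22981 features. The median difference was -0.28 against -0.21 over all features. All 3 knockout arrays lay below the controls for 14 genes (37.8%; 26.7% of all features) and above them for 1 (2.7%; 9.73% of all features), Acat2. Differences ran from -0.75 for Scd1 (adjusted p = 0.234) to 0.59 for Fads1 (adjusted p = 0.282). Acat2 read -0.79, -0.87 and -0.92 in resting controls and 0.02, -0.53 and -0.51 in resting knockouts, a difference of 0.52 (adjusted p = 0.24).

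Medians over a role group on each array lay lower in stimulated knockouts than in stimulated controls in 4 of the 5 role groups, and overlapped in the liver X receptor side. Taking each gene relative to its mean over the 12 arrays, the mevalonate steps stood at 1.58, 1.14 and 1.46 in stimulated controls and 0.17, 0.03 and 0.49 in stimulated knockouts. The squalene to cholesterol steps stood at 1.67, 1.02 and 1.52 against 0.28, 0.06 and 0.52. Fatty acid synthesis stood at 0.74, 0.27 and 0.72 against 0.01, -0.22 and 0.13, a smaller gap. On all features the medians stayed between -0.17 and 0.09. Stimulated control replicate 2 and stimulated knockout replicate 2 were the lowest arrays of their groups in each of these 3 role groups.

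**Figure D4:**
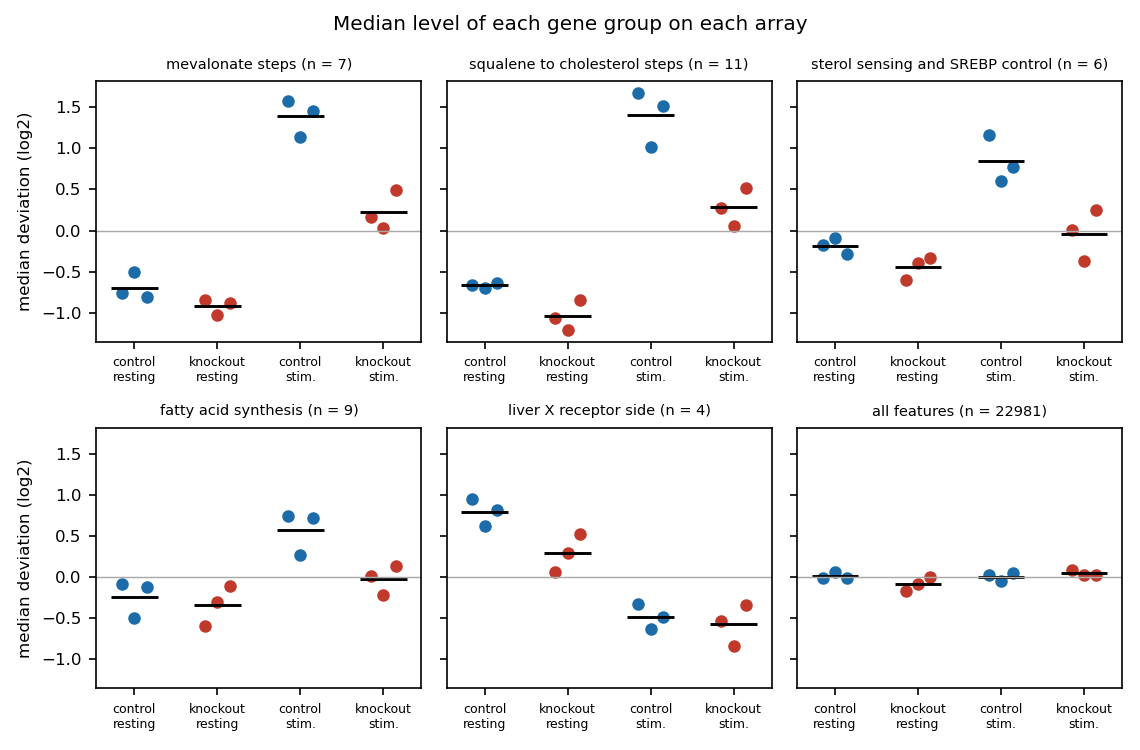
Median log2 deviation of each role group, and of all features, on each of the 12 arrays (points; blue control, red knockout; black bars are group means), each gene taken relative to its mean over the 12 arrays. In the mevalonate and squalene to cholesterol panels the stimulated knockout arrays lie between the resting and the stimulated control arrays.

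Genes next to the pathway were counted in the same fit. Of all features it called 2.26% lower and 1.21% higher in stimulated knockout cells, with a median difference of -0.02. In stimulated knockout cells 3 of 13 tested genes of the isoprenoid branch were lower and none was higher (median -0.27). Among the lower ones were Dhdds at -1.27 (SE 0.23, limma adjusted p = 0.0197) and Nus1 at -1.1 (SE 0.23, adjusted p = 0.0318), the subunits of the enzyme that makes the dolichol precursor for protein glycosylation. Of 16 genes of SREBP processing and sterol transport none was called (median -0.19). Of 19 genes of phospholipid synthesis 1 was lower, Agpat5, an acyltransferase, at -1.17 (adjusted p = 0.0204; median of the 19 -0.26), and of 18 genes of fatty acid oxidation none was called (median -0.28). Whether these counts and medians differ from those of the synthesis genes was not tested.

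Other markers moved with the same comparison, in which 2.26% of all features were lower and 1.21% higher (median -0.02). In stimulated cells 6 of 8 plasma cell markers were lower in the knockout (median -1.43), and their summed linear level ran from 406 to 642 on control and from 202 to 262 on knockout arrays, where 1 is an array's 75th percentile. Of 7 tested proliferation markers none was called (median -0.55), with sums from 239 to 372 against 181 to 228. Of 10 B cell markers 2 were lower, Cd79a, whose locus carries the Cre, at -1.1 (limma adjusted p = 0.0343) and Fcer2a at -1.01 (adjusted p = 0.0421), with overlapping sums from 493 to 695 against 535 to 650. At rest the B cell sums did not overlap, at 1040 to 1220 in controls against 697 to 826 in knockouts. All 10 resting differences were negative (median -0.65, against -0.21 over all features), and none was called.

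Among markers of other cells the calls were higher ones, where 1.21% of all features were higher. Of 12 tested macrophage and granulocyte markers 5 were higher in stimulated knockout cells, with sums from 10.9 to 26.8 in controls and from 30.6 to 39.2 in knockouts, and no probe was named for Cd68. Their sums at rest were 48.6 to 82.5 against 108 to 156. Of 6 tested NK cell markers 3 were higher, Gzma, Gzmb and Nkg7, with sums from 35 to 36.5 against 218 to 422 and Klrd1 and Klrk1 failing the filter. Of 8 T cell markers 1 was higher, Cd3g, with sums from 42 to 52.4 against 55.9 to 62.7 and no probe named for Trac; of 4 erythroid markers 1 was higher, with sums from 2.45 to 6.69 against 3.35 to 12.3, no probe named for Hbb-bs, and Klf1 among those that failed the filter. The part of any of these in the lower synthesis genes was not tested, and in bulk RNA fewer cells of a type and less RNA per cell cannot be told apart.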

How the data were processed

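RNA of splenic B cells was amplified, labelled with Cy3 and hybridised to 12 one-colour Agilent arrays, per the labels' protocols. The deposited values are background-subtracted signal intensities on a linear scale, made by the authors with Agilent Feature Extraction 10.7.3.1 per the file headers; the submitters' processing notes name version 9.1. Outlier spots were set to missing, each array's 75th percentile (control spots left out) was subtracted from the log2 intensity, and repeated spots of one probe were averaged. Signal over background and the number of arrays limit the precision.

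The 55681 non-control probes were named by accession through RefSeq genes of GRCm38.p6 (26413 named). A probe was kept if some group had it well above background throughout its 3 arrays, the brightest standing for a gene (12295 genes and 10686 unnamed probes). limma 3.58.1 (R 4.3.3; data.table, version 1.17.8) was fitted on all 12 arrays with 4 group means, 8 residual and 2.55 prior degrees of freedom, with Benjamini-Hochberg adjustment over all 22981 features at 0.05; 330 missing values stayed missing. All adjusted p-values are limma's. The fit was tested on simulated data. Fold is 2 to the power of the change.

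Values on every array are given for genes called in a knockout comparison or the interaction, and for the gene with the smallest p in a role group without a call. The members, lists and tests were chosen with earlier results of these data known. No label ties equal replicate numbers to one mouse. Arrays of one number deviated together in the stimulated knockout comparison (correlation of their deviations from the group means 0.35, 0.33 and 0.48) and in stimulation of control cells (0.42, 0.43 and 0.51), but not in every pair at rest (-0.12, 0.2 and 0.39) or in stimulation of knockout cells (0, 0.15 and 0.39). Alternatives covered scaling, background correction (normexp, offset 50), the filter, probe choice, blocks, variance model and omitted arrays. Some genes of the companion and marker lists are not reported here by name.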

Additional observations from a re-analysis of the deposited data

How the results depend on the processing

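Medians of the 37 genes moved with the scaling, as did the median of all features. In stimulated knockout cells the median (-0.85, all features -0.02) was -1.41 (all features -0.58) with median scaling and -0.45 (all features 0.39) with scaling to the 75th percentile of spots detected on all arrays; relative to all features it lay between -1.03 and -0.66 over 28 fits. At rest the median (-0.28) was -0.89 with median scaling, -0.09 after quantile normalization, 0.07 with scaling to detected spots and -0.17 with normexp. It lay between -0.42 and -0.19 with 1 array left out. Relative to all features it was -0.07, and it ran from -0.62 to 0.05 over 28 fits. The lowest value came without a filter (median -0.26, all features 0.36) and the highest with the filter on all 12 arrays. The median of stimulation in control cells (1.5) was 1.25 after quantile normalization, 1.12 with scaling to detected spots and 1.3 to 1.62 with 1 array left out. That in knockout cells (0.6) was 0.27 with scaling to detected spots, 0.99 with the filter on all 12 arrays and 0.52 to 0.79 with 1 array left out. The interaction median ran from -0.96 to -0.62 with arrays left out.

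The count of 15 genes lower in stimulated knockout cells was 6 after quantile normalization, 1 without a filter, 23 with a filter on all 12 arrays (28 genes tested), 23 with the replicate block, 0 with the 2 groups only, 23 with trended and robust variance, 1 without both arrays of control replicate 1, and 0 with slide 1 only; leaving out single arrays gave 1 to 23. The 20 genes called for stimulation in knockout cells were 12 with median scaling, 13 without a filter and 13 with slide 1 only. The interaction had 1 call with scaling to detected spots, and 3 with the filter on all 12 arrays and 3 with trended and robust variance. The replicate block changed the count of no other comparison by over 1.5 times. The causes of these moves were not tested. Calls over all features moved as well, so these counts alone do not single out the listed genes. No called gene of the list changed sign in any fit. For the 15 genes lower in stimulated knockout cells the 2 groups did not overlap, so omitting arrays could not reverse the sign. The Sub1 difference lost its call without a filter (-1.21), with the mean of its probes (-0.56), with the 2 groups only (-1.21), without both arrays of control replicate 1 (-1.13), with slide 1 only (-1.2), and without stimulated knockout replicate 1 (-1.15) or 2 (-1.22); with arrays left out it ran from -1.34 to -1.13.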
